A study of Mus musculus with 8 samples.

Results

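Tet1, Tet2 and Tet3 encode the TET dioxygenases. Every same-strand CAGE tag cluster whose dominant TSS lay between 500 bp upstream of the annotated start of 1 of these 3 genes and its end was taken from each line. In wild-type E14 cells 101 of 32857 tag clusters met this rule, in clone A1 104 of 33005 and in clone C7 102 of 32870. A tag cluster is a run of neighbouring capped 5′ ends on 1 strand, and its dominant TSS is the position with the most of them. The genes were chosen with the exonic clusters of Tet1 and Tet2 already known, that is, they were selected on the cluster positions themselves, so the positions and numbers below describe them and no test was made.

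CAGE-seq captures the cap of RNA and sequences the 5′ end behind it, so that each tag marks a capped 5′ end. Such ends are called start sites here, and whether those inside exons arose by initiation was not tested. Nuclear RNA was taken from mouse embryonic stem cells (mESCs) of the line E14, wild-type (3 libraries). It was also taken from Pwwp2a/b double knockout (DKO) mESCs, clone A1 (2 libraries) and clone C7 (3 libraries), which the paper compares with E14. All lines were grown in serum with LIF. Each DKO line is a single clone, so the knockout and the history of a clone cannot be told apart within 1 line. The authors merged the libraries of a line, which left 1 deposited set of positions per line and no replicate error. PWWP2A and PWWP2B are readers of histone H3 that carry a histone deacetylase complex. The paper compares both the places and the levels of transcription starts when both are lost. It reports raised levels at intragenic sites already present in wild-type cells. The positions used here carry no levels and cannot show such a change.

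TET enzymes oxidise 5-methylcytosine in DNA to 5-hydroxymethylcytosine and further products, which thymine DNA glycosylase and base excision repair replace with unmethylated cytosine. Tet1 and Tet2 are the members known from embryonic stem cells, whereas Tet3 is best known from the oocyte, the zygote and neurons. TET1 and one form of TET3 carry a CXXC domain that binds DNA rich in CpG, while the matching domain of TET2 is encoded by a separate gene, Cxxc4.

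The labelled cell type was checked on marker genes. All 7 stem cell markers examined, Pou5f1, Sox2, Nanog, Esrrb, Zfp42, Klf4 and Dppa5a, had a promoter cluster in every line. Of 9 markers of other cells, 4 had a promoter cluster (Sox17, Pdgfra, Col1a1 and Thy1), with 5 clusters among them in each line, and the other 5 had no cluster. Of the knocked-out genes, Pwwp2a kept 1 promoter cluster and 1 intronic cluster in all 3 lines and Pwwp2b had none in any line, so the positions of clusters could not check the knockout. The cultures are bulk samples, in which fewer cells of a type and less RNA per cell cannot be told apart.

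Tet1 (ENSMUSG00000047146.17) is transcribed from the minus strand of chromosome 10, between 62804570 and 62908996 of mm10. It has 10 transcripts in GENCODE release M21, of which Tet1-206 has the most exons, 13. A cluster within 500 bp of any annotated transcript start was called a promoter cluster, and the remaining ones exonic or intronic. Tet1 held 13 promoter clusters in each line. Of these, 7 lay upstream of exon 2 of Tet1-206, 1 in exon 2 ahead of the start of transcript Tet1-201, 4 in exon 2 past that start and 1 in exon 3. The last 5 counted as promoter clusters because Tet1-201 begins inside exon 2, at position 62880014, and Tet1-202 at 62865304. With a window of 100 bp the number of promoter clusters was 8 in each line.

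The first exons of Tet1 were used at several places. Coming from upstream, a cluster at 62899118 to 62899157 lay at the start of Tet1-206, a group of 3 clusters between 62892706 and 62893042 lay around the start of Tet1-209, and another group of 3 between 62887205 and 62887563 lay around the starts of Tet1-210 and Tet1-207. The annotated start of Tet1-208, which opens the gene model, had no cluster within 500 bp, and the first cluster of the gene, an intronic one, lay 6608 bp past it. The 24 bases around the dominant TSS in E14 are shown for all 11 promoter clusters of Tet1 that could be read, and for those of Tet2 and Tet3, because they were of more than one kind. Of the 3 clusters around Tet1-209 the uppermost, at 62893034 to 62893042, could not be read. Upper and lower in the labels below name the other 2. Sequences run 5′ to 3′ on the minus strand of mm10, from 12 bases before the dominant TSS onwards, are taken from GENCODE M21 transcripts, or from RefSeq promoter windows (GRCm38.p6) for 62887512 of Tet1 and the shorter cluster of Tet2, and have the 2 bases before the dominant TSS and the TSS itself in capitals.
Tet1-209 promoter, upper cluster, chr10:62892962-62892985: ctccaaaaggACAgacagatttac
Tet1-209 promoter, lower cluster in E14, chr10:62892851-62892874: aaaccggcagGCAgatcttttctg
Tet1-209 promoter, lower cluster in A1 and C7, chr10:62892855-62892878: aaaaaaaccgGCAggcagatcttt
Tet1-210 promoter, at its start, chr10:62887501-62887524: agaagggtcgAGAggagtccggct
Tet1-210 promoter, within exon 1, chr10:62887413-62887436: tgtgccccagCTAcactcctagag
Tet1-207 promoter, chr10:62887216-62887239: ctcttctacgGGAacattcgcgga
Tet1 exon 2 ahead of Tet1-201, chr10:62880094-62880117: accaagcttgGCAacacctccaga
Tet1 exon 2 past the start of Tet1-201, first cluster, chr10:62879985-62880008: cggtcccgccCCGcaaagccttcc
Tet1 exon 2 past the start of Tet1-201, second cluster, chr10:62879879-62879902: catcagcgaaGGCagtgaaccccg
Tet1 exon 2 past the start of Tet1-201, next cluster, chr10:62879825-62879848: atggtaagaaGGAaacggaagaca
Tet1 exon 2 past the start of Tet1-201, last cluster, chr10:62879574-62879597: gacgagccggGGGtaaagcactct
Tet1 exon 3, chr10:62864819-62864842: ggccccagagGGAaaagaagccca
Tet2 promoter, shorter cluster, chr3:133544398-133544421: cgctcgcatgCCAgtcacgtccgc
Tet2 promoter, longer cluster, chr3:133544281-133544304: tcgtagaggaGCAgaaggaagcaa
Tet3 promoter, longer cluster, chr6:83441638-83441661: ggagcagccgGCAgctggccgccg

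A pyrimidine followed by a purine at the TSS, the usual initiator step of mammalian promoters, stood in 5 of the 11 readable promoter clusters of Tet1 in E14, in 3 of them as CA. Both promoter clusters of Tet2 and the readable one of Tet3 had CA. Another 5 of Tet1 had GG before the TSS. At the lower cluster of Tet1-209, the dominant TSS moved by 4 bp upstream in both clones, from 62892862 to 62892866, between neighbouring copies of GCAG. Over the genome, 74.7% of 16899 promoter clusters of E14 whose bases could be read had a pyrimidine-purine step (95% Wilson interval 74 to 75.3).

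Inside the exons GG was common just before the TSS, though not always at positions −2 and −1 (the TSS being +1). The following windows are from exonic clusters of Tet1 and Tet2. They were chosen to show exon 2, the widest cluster, the 3′ end of the coding sequence and a 3′ UTR site. The cluster called in both clones but not in E14 is included. Sites of Tet1 exons 2 and 4 and of Tet2 exon 3 that lack GG at −2 and −1 stand with them. Several of these have it 1 or 2 bases further upstream. Exon 13 of Tet1 had sites without GG at −2 and −1 as well, among them 62812673 and 62809671, whose windows are not shown.
Tet1 exon 2, A1 and C7 only, chr10:62879361-62879384: ccactggaagGGAcacattgtgaa
Tet1 exon 2, chr10:62878903-62878926: acttcagtggGGAttttctggtgc
Tet1 exon 2, no GG at −2 and −1, chr10:62878929-62878952: ctaggacaggCCTttagtactctt
Tet1 exon 2, no GG at −2 and −1, chr10:62878673-62878696: cctcctgtggGCTtgaagtccaag
Tet1 exon 2, no GG at −2 and −1, in E14 and A1, chr10:62878629-62878652: ttggactcagGACacactccccaa
Tet1 exon 4, no GG at −2 and −1, chr10:62839775-62839798: acagcgctggGAGtcgacctcacc
Tet1 exon 4, widest cluster, chr10:62839345-62839368: cgctgctggtGGGagagctccctt
Tet1 exon 4, next cluster, chr10:62839136-62839159: tcaacgccgaGGTcaggaatgctg
Tet1 exon 13, coding, chr10:62812525-62812548: acaatcgttgGGTctaaaggcttc
Tet1 exon 13, 3′ UTR, chr10:62810890-62810913: tcctgcacagGGAgctggatgctc
Tet2 exon 3, chr3:133486838-133486861: caggtatgggGGAccaacatcttc
Tet2 exon 3, chr3:133486386-133486409: acccaaggggGGTtggagcaagta
Tet2 exon 3, no GG at −2 and −1, chr3:133486676-133486699: aggccacagaGACtcaacggttat

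Tet1 was set apart by its exonic clusters, of which E14 had 48, A1 50 and C7 49. Tet2 (ENSMUSG00000040943.12, chromosome 3, minus strand, 133463679 to 133545139) carried 13 exonic, 8 intronic and 2 promoter clusters in each line. Tet3 (ENSMUSG00000034832.15, chromosome 6, minus strand, 83362373 to 83459084) carried 2 promoter clusters in each line and no other. The merged exons of the genes are of like length, 15457 bp for Tet1, 16870 bp for Tet2 and 16695 bp for Tet3. The promoter clusters of Tet2 had their dominant TSSs 6 bp from the start of Tet2-202 and 19 bp from that of Tet2-201. Those of Tet3 lay 17 bp from the start of Tet3-205 and 170 bp from that of Tet3-203, and with a window of 100 bp the latter was intronic. The order Tet1, Tet2, Tet3 by number was the same in all 3 lines. Many of the exonic clusters were very narrow, and among those at least 3 bp wide between the 0.1 and 0.9 quantiles of their tags, Tet1 kept 26 exonic ones in E14, 28 in A1 and 27 in C7. Tet2 kept 6, 7 and 7.

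**Figure D1:**
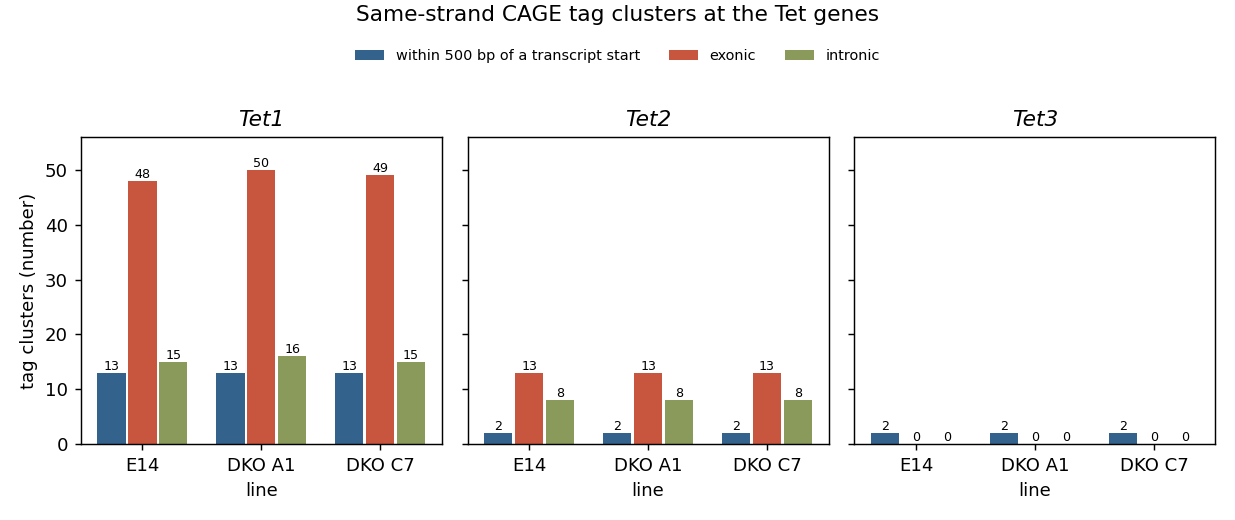
Number of same-strand tag clusters (vertical axis) at Tet1, Tet2 and Tet3 in each line (horizontal axis), with promoter clusters in blue, exonic ones in red and intronic ones in green. Each bar is 1 merged value per line. Exonic clusters number 48 to 50 at Tet1, 13 at Tet2 and 0 at Tet3, and the bars barely differ between the lines.

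Most protein-coding genes had none of these clusters. Of 11161 protein-coding genes with a promoter cluster in E14, 86.7% had no exonic cluster. Tet1 stood at rank 2 for exonic clusters, at rank 3 for all clusters, at rank 6 for intronic clusters and at rank 18 for promoter clusters. The 1 gene with more exonic clusters was Mki67, a marker of proliferating cells, with 52, named here after its value was seen. Per kilobase of merged exon Tet1 had 3.11 exonic clusters in E14 and stood at rank 19. Tet2 stood at rank 34 for exonic clusters and Tet3 shared the value of the genes with none. All of these ranks are for clusters as deposited. Joining clusters within 100 bp left 24 exonic ones at Tet1 in E14, and ranks were not redone for joined clusters. Among 478 other genes whose exon length was 0.8 to 1.25 times that of Tet1, the median was 0 exonic clusters and the highest 36. Of 359 genes of like length to Tet2, 352 had fewer than its 13. Of 367 of like length to Tet3, 232 had none as well. These comparisons take exon length into account but not expression, for which the deposited clusters give no value. The paper reports that most spurious sites lay in highly expressed genes, and the part of expression in these ranks was not tested.

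**Figure D2:**
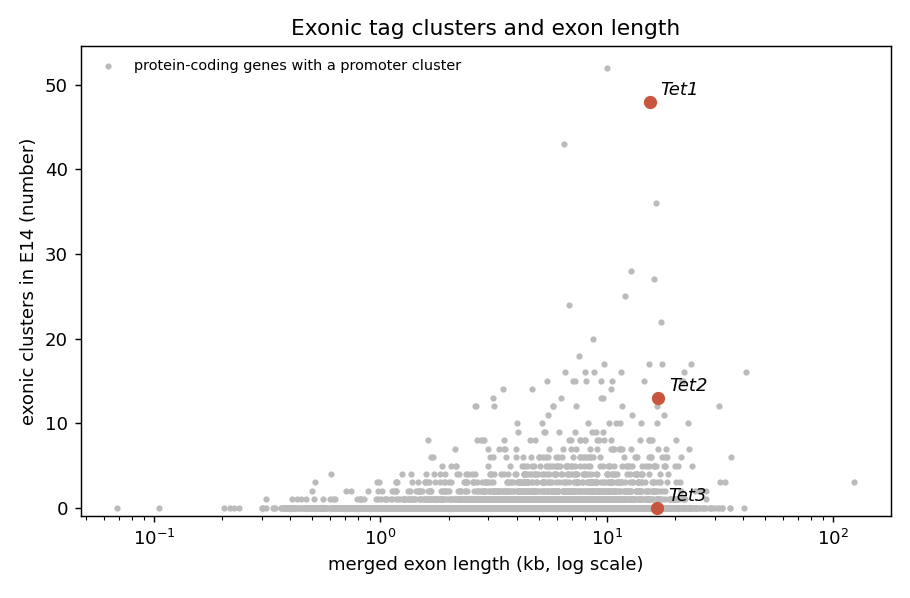
Exonic clusters in E14 (vertical axis, number) against merged exon length (horizontal axis, kb, log scale), with a grey point for each of the 11161 protein-coding genes with a promoter cluster and the Tet genes in red. At nearly the same exon length, Tet1 sits at 48, Tet2 at 13 and Tet3 at 0. The genes are not matched for expression.

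Most exonic clusters of Tet1 lay in 3 long exons. Exon 2 of Tet1-206 (62878152 to 62880133, 1982 bp) held 14 clusters in E14, of which 9 were exonic by the promoter rule, and exon 4 (62838176 to 62840378, 2203 bp) held 14. Exon 13 (62804577 to 62813412, 8836 bp), with the end of the coding sequence and the 3′ UTR, held 20. Per kb these came to 7.06 clusters in exon 2, 6.35 in exon 4 and 2.26 in exon 13. Exons 5, 6 and 12 held 1 each, while exons 7 to 11, with 687 bp in all, held none. In E14 the exonic clusters came to 5.23 per kb of the coding sequence of Tet1-206 (32 clusters in 6117 bp) and to 1.76 per kb of its 3′ UTR (14 in 7958 bp). The coding value was 5.56 per kb in A1 and 5.39 per kb in C7, and the 3′ UTR value was the same in all lines. The remaining 2 exonic clusters belonged to other transcripts, 1 to a 5′ UTR exon of Tet1-208 and 1 to a 3′ UTR of the short transcript Tet1-203.

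Within an exon the clusters were scattered. In E14 the median distance between neighbouring dominant TSSs was 97 bp in exon 2, with a range from 26 to 645 bp, 85 bp in exon 4 (30 to 511 bp) and 139 bp in exon 13 (40 to 1676 bp). The first cluster of exon 2 lay 28 bp past the 5′ end of the exon and the last 4 bp before its 3′ end. In exon 4 the first lay 196 bp past the 5′ end and the last 196 bp before the 3′ end. The last cluster of Tet1, in the 3′ UTR at 62805943, lay 1373 bp before the gene end.

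**Figure D3:**
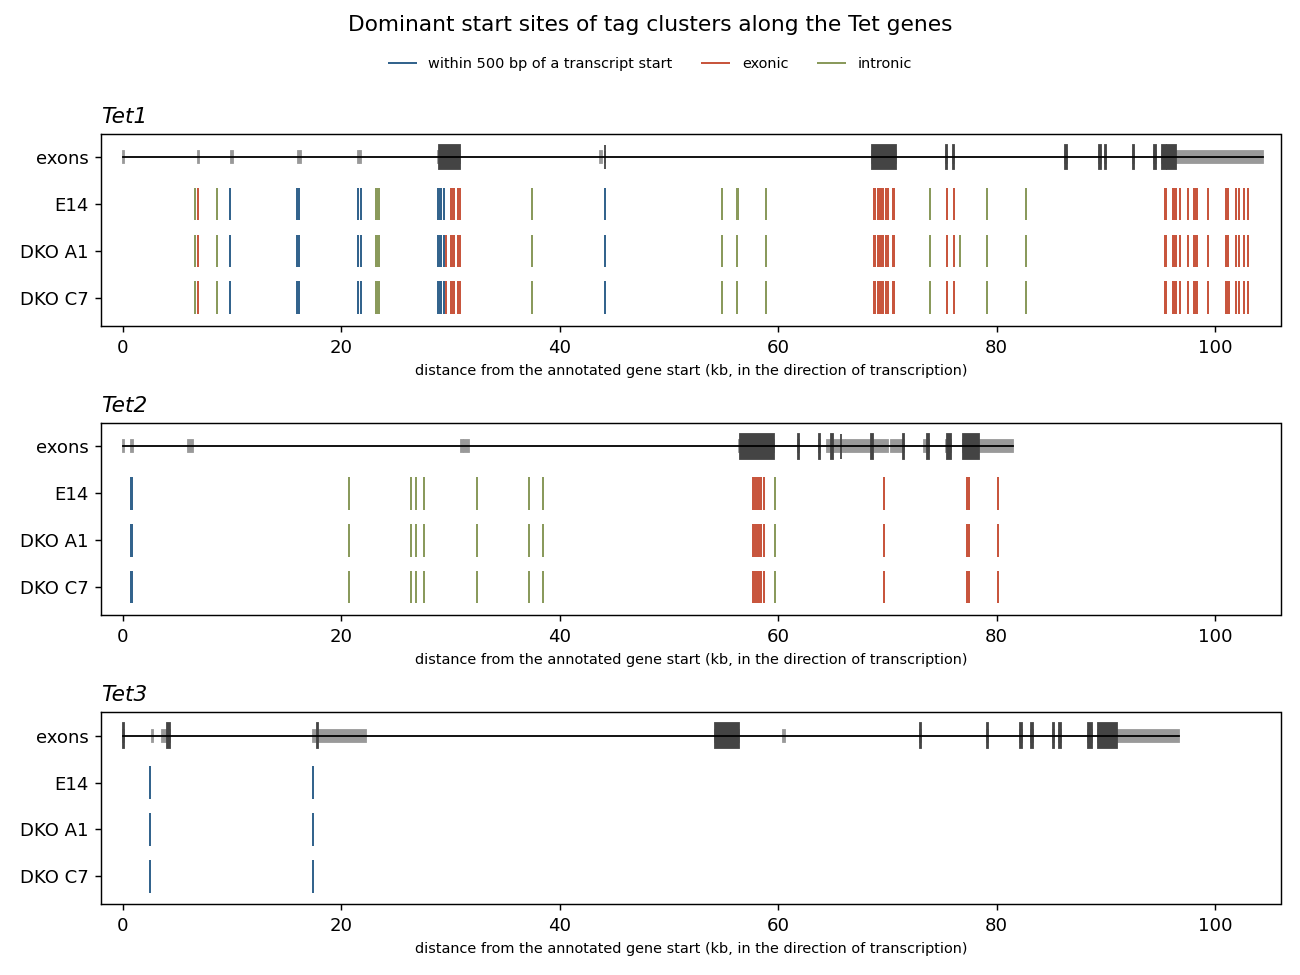
Dominant start sites of tag clusters along Tet1, Tet2 and Tet3, as distance from the annotated gene start in kb in the direction of transcription, with 1 row per line and the same colours as in the bars of cluster numbers. Dark boxes are coding exons and light boxes untranslated or non-coding ones. The ticks of Tet1 gather over the long exons 2, 4 and 13, and those of Tet2 over exons 3 and 11. Tet3 has 2 ticks, 2522 and 17435 bp past its annotated start.

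Tet2 had fewer exonic clusters, 13 in each line, of which 11 lay in coding sequence. Exon 3 of Tet2-201 (133485512 to 133488717, 3206 bp), which holds most of its coding sequence, had 7 exonic clusters, and exon 11 (133463679 to 133468190, 4512 bp) had 5. Exons 4 to 10, with 1125 bp in all, had none. The other exonic cluster, at 133475453 to 133475455, lay in the retained-intron transcript Tet2-208. The coding sequence of Tet2 had 1.92 exonic clusters per kb and its 3′ UTR 0.327 per kb, in each of the 3 lines. Tet3 had none in 5004 bp of coding sequence and 5672 bp of 3′ UTR. Since the deposited clusters give no tag counts, an absent cluster means that no cluster was called and not that no RNA started there.

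Introns held fewer clusters per length. Tet1 had 15 intronic clusters in E14, 16 in A1 and 15 in C7, which is 1.69, 1.8 and 1.69 per 10 kb of intron, while Tet2 had 8 in each line, or 1.24 per 10 kb. A group of 5 intronic clusters of Tet1 lay within 325 bp, from 62885532 to 62885856, downstream of the first exon of Tet1-207. Of the 8 of Tet2, 7 lay in its long introns ahead of exon 3, and 1, at 133485424 to 133485430, just past exon 3.

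The bases at the exonic dominant TSSs of Tet1 were read from transcript sequence for 46 of 48 clusters in E14. G stood at position −2, with the dominant TSS as +1, in 39 of 46, or 84.8% (95% Wilson interval 71.8 to 92.4, counting error only). A1 had it in 41 of 48 and C7 in 41 of 47. GG at positions −2 and −1, the first capitals of many of the exonic windows above, stood in 24 of 46 in E14, or 52.2% (38.1 to 65.9), while A1 had it in 28 of 48 and C7 in 27 of 47. GG anywhere from −4 to −1 stood in 35 of 46 in E14 (76.1%), against 80.3% of all exonic clusters, 31% of promoter clusters and 12.3% of the positions of Tet1-206. A pyrimidine-purine step at the TSS was found in 4 of 46 in E14. The exonic clusters of other genes had close shares. Of 4032 exonic clusters of E14 with sequence 81.5% had G at −2, 63.7% had GG and 10.6% had the step, and each value lay within the interval of Tet1. Over every position of Tet1-206, G made up 21.3%, GG 4.79% and the step 22.1%.

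Over all promoter clusters of E14 the shares were lower, with G at −2 in 38.7% of 16899 and GG in 10.9%. Among the promoter clusters of Tet1 itself, G at −2 stood in 7 of 11 with sequence (63.6%), GG in 5 (45.5%) and GG anywhere from −4 to −1 in 8 (72.7%). In Tet2, 13 of 13 exonic clusters in E14 had G at −2, 9 had GG at −2 and −1, 12 had it anywhere from −4 to −1 and none had the step (interval up to 22.8%). The 5 promoter clusters of Tet1 with GG were the 3 last ones in exon 2, the one in exon 3 and the one at 62887227, so that all but 1 of them lay in coding exons of Tet1-206, where the start of a shorter transcript model made them promoter clusters. Bases were searched on the transcribed strand only, and a letter at a position describes these windows without naming a factor or a cause. The bases of intronic clusters were not read here.

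**Figure D4:**
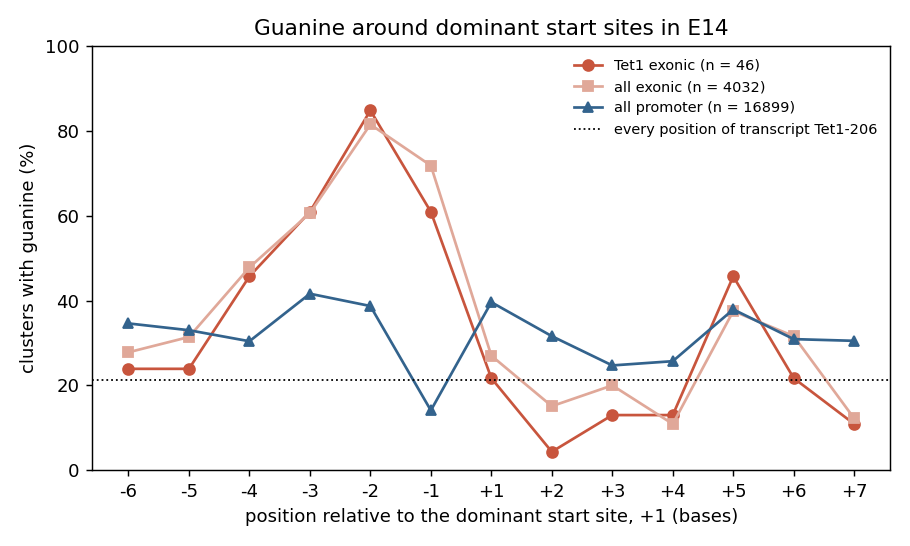
Share of clusters with guanine (vertical axis, percent) at each position from −6 to +7 around the dominant start site (horizontal axis, bases) in E14, for exonic clusters of Tet1 (dark red), all exonic clusters (light red) and all promoter clusters (blue), with the share over every position of Tet1-206 as a dotted line. Both exonic curves peak at −2, at 84.8% for Tet1 and 81.5% for all exonic clusters, where promoter clusters have 38.7%.

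The width of a cluster is given as the interquantile width, the stretch between the 0.1 and 0.9 quantiles of its tags. The exonic clusters of Tet1 had a median of 3 bp in each line, as had all exonic clusters. In E14, 28 of 48 (58.3%) were at most 3 bp wide, against 50.7% of all exonic clusters. For its promoter clusters the median was 33 bp in E14 and 27 bp in both clones, against 20 bp in E14 and 21 bp in each clone over all promoters. This depended on the settings. By whole clusters the median was 40 bp in each line, against 31 bp over all promoters. With a promoter window of 1000 bp the interquantile median was 30 bp in E14 and 18 bp in each clone. For the intronic clusters of Tet1 the interquantile median was 14 bp in E14, 13.5 bp in A1 and 14 bp in C7, against 3 bp over all introns.

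A few exonic clusters were as broad as promoters. The widest, in exon 4 at 62839194 to 62839366, spanned 136 bp in E14, 121 bp in A1 and 122 bp in C7. The next, at 62839069 to 62839169, spanned 91 bp in E14, 90 bp in A1 and 91 bp in C7. With the cluster at 62838961 to 62839012 these form a run of 3 that covers 326 of 406 bp of coding exon 4. In exon 13 the cluster at 62812485 to 62812560 spanned 49 bp in E14 and 50 bp in each clone.

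The lines were nearly alike in where clusters lay. No cluster of a Tet gene in E14 lacked an overlapping one in A1 or in C7. Among all E14 clusters, 0.709% had none in A1 and 0.749% none in C7. The reading of this is limited, because start and end were identical to the base in A1 for 98.3% of all E14 clusters and in C7 for 98.6%, and at the Tet genes for all but 1 cluster. Cluster limits so alike leave little room for a cluster to be present in one line only, and how they came to be shared was not tested. The study's methods name a step that joined short clusters over replicates into consensus peaks, without saying whether it was used for the deposited limits.

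At Tet1, 2 clusters of A1 and 1 of C7 had no overlap in E14. That is 2 of 79 in A1, where the share over all clusters was 1.11%, and 1 of 77 in C7, where it was 0.776%. The one found in both clones, 1 bp wide at 62879372 in coding exon 2, lay 642 bp past the start of Tet1-201. Of all A1 clusters 0.448% overlapped C7 and not E14, and of the exonic ones 0.928%, so that 1 of 50 at Tet1 is near the background. The other, at 62832345 to 62832347 in an intron, was found in A1 only. In A1 the exon 4 cluster at 62838961 to 62839012 was moreover divided into one from 62838961 to 62838963 and one from 62838986 to 62839012. The clusters of Tet2 and Tet3 were the same in number in all 3 lines.

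Dominant TSSs, unlike the limits, varied between lines. At Tet1, 12 of 76 differed between E14 and A1 and 11 of 76 between E14 and C7, at Tet2 3 and 2 of 23, and at Tet3 none of 2, where over all clusters 23.8% differed in A1 and 21.1% in C7. Among the promoter clusters of Tet1, 2 of 13 differed in each clone, against 21.7% of all promoter clusters in A1 and 19.3% in C7. Among its exonic clusters 8 of 48 differed in A1 and 6 of 48 in C7, against 25.4% and 22.9% of all exonic clusters. The dominant TSS was the same in all 3 lines for 58 of 76 clusters of Tet1, 18 of 23 of Tet2 and 2 of 2 of Tet3, together 77.2%, against 66.3% of all clusters. At Tet1, 3 of the 12 shifts in A1 and 5 of the 11 in C7 were by 1 bp, and 6 in A1 and 3 in C7 were by over 5 bp. They went both ways, 7 upstream and 5 downstream in A1, and 7 upstream and 4 downstream in C7. The longest in A1 was by 20 bp downstream, from 62812199 to 62812179, where C7 kept the position of E14. The longest in C7, in the 3′ UTR cluster at 62807751 to 62807777, went from 62807777 in E14 to 62807751, by 26 bp downstream, while A1 had 62807764, 13 bp downstream. Among the shifts at exonic clusters of Tet1, GG at −2 and −1 was gained in 3 of 8 in A1 and lost in none, and gained in 3 of 6 in C7 and lost in 1. At Tet2 it was lost in 1 of 2 in A1 and in the only 1 in C7, and gained in none. Gains and losses were not counted over the shifted exonic clusters of other genes, so these few have no background share. Among exonic clusters of the whole genome, shifted or not, GG stood at 63.7% for E14, 62.6% for A1 and 63.5% for C7. For Tet1 the matching values were 52.2%, 58.3% and 57.4%. The dominant TSS was the same in all 3 lines for 37 of its 48 exonic clusters. These values are therefore not independent, and the Wilson interval of E14 (38.1 to 65.9) cannot say whether the lines differ. The windows that follow show a gain in the 3′ UTR cluster of Tet1 at 62810699 to 62810700, by 1 bp upstream in both clones, and a loss in the exon 12 cluster at 62813607, by 1 bp downstream in C7.
Tet1 3′ UTR in E14, chr10:62810688-62810711: aacctttgagGTTtcagaccttat
Tet1 3′ UTR in A1 and C7, chr10:62810689-62810712: taacctttgaGGTttcagacctta
Tet1 exon 12 in E14 and A1, chr10:62813596-62813619: gtgggaagagGGCcaaaatgaagc
Tet1 exon 12 in C7, chr10:62813595-62813618: tgggaagaggGCCaaaatgaagca

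Some promoter clusters differed in width. The cluster at 62892706 to 62892874 of Tet1 spanned 62 bp in E14, 70 bp in A1 and 83 bp in C7. The cluster at 62887305 to 62887483 spanned 98, 107 and 108 bp in the same order, while its neighbour at 62887205 to 62887255 spanned 37 bp in E14 and 18 bp in each clone. At Tet2 the longer promoter cluster, at 133544252 to 133544334, spanned 20 bp in E14, 29 bp in A1 and 37 bp in C7, with its dominant TSS at 133544292 in all lines. The longer promoter cluster of Tet3, at 83441630 to 83441659, spanned 8 bp in E14, 27 bp in A1 and 30 bp in C7, with its dominant TSS at 83441649 throughout. The shorter promoter cluster of Tet2, at 133544409 to 133544416, was 8 bp wide, and that of Tet3, at 83456543 to 83456562, was 20 bp wide, in every line.

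Of the 101 Tet clusters in all lines, 9 were wider in both clones than in E14 and 3 narrower, against 12.5% and 4.01% of all clusters. Both clones were wider at the longer promoter cluster of Tet2, at that of Tet3 and at 2 of 13 promoter clusters of Tet1, and were narrower at 1 of 13. Over all promoter clusters 16% were wider in both clones and 5.1% narrower, so more promoters were wider than narrower in the whole data as well. Among the 48 exonic clusters of Tet1 in all lines, 2 were wider in both clones and 1 narrower, against 6.22% and 2.11% of all exonic clusters. Some changes were seen in 1 clone only. The 3′ UTR clusters at 62807866 to 62807881 and 62805935 to 62805961 spanned 2 and 9 bp in E14 and in A1, but 16 and 27 bp in C7. With 1 merged value per line, these differences have no error to be set against, and A1 rested on fewer libraries than E14 and C7.

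**Figure D5:**
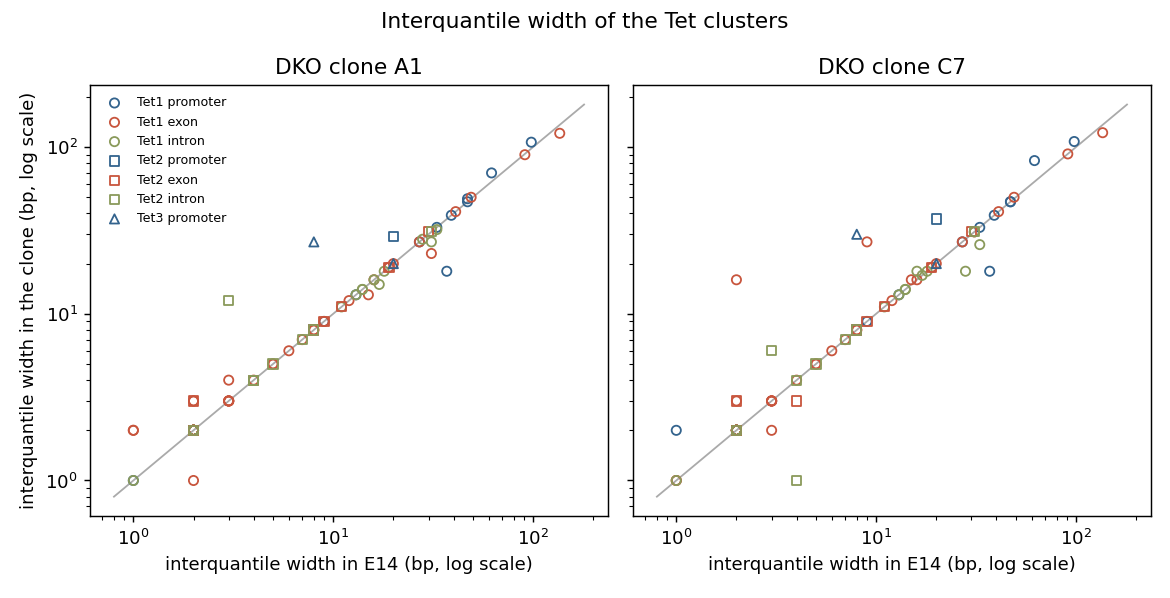
Interquantile width of each Tet cluster found in all lines, in E14 (horizontal axis, bp, log scale) and in clone A1 (left) or C7 (right, vertical axis, bp, log scale), with a symbol per gene and a colour per category. The grey line marks equal widths. Most points lie on it, and the longer promoter cluster of Tet3, 8 bp in E14 against 27 and 30 bp, and that of Tet2, 20 bp against 29 and 37 bp, lie above it.

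Clusters also lay on the opposite strand. Tet1 had 9 in each line, 4 opposite exons and 5 opposite introns, Tet2 had 5, 2 opposite exons and 3 opposite introns, and Tet3 had none. On their own strand all of these were intergenic. Of the 4 opposite exons of Tet1, 2 lay at the downstream end of the run of broad clusters in exon 4, at 62838946 to 62838953 and 62838988 to 62838999, and 1, at 62864816 to 62864835, overlapped the sense cluster of exon 3 at 62864830 to 62864831. A group of 4 lay within the first intron of Tet1-206, between 62895727 and 62895842.

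The range of the rule had no cluster near its edges. Upstream of Tet1 the nearest same-strand cluster lay 109113 bp from the gene start, and downstream 12288 bp past its end. For the promoter window, the cluster of Tet1 farthest inside was the one of exon 3, 474 bp from the start of Tet1-202, and the nearest outside were that at 62879372 in the clones and, in E14, that at 62813607 in exon 12, 932 bp from the start of Tet1-203. At Tet2 the nearest outside lay 635 bp from the start of Tet2-209, in every line.

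No other listed gene of DNA methylation and demethylation had as many exonic clusters as Tet1 or Tet2. Of 26 such genes 25 had a promoter cluster and 7 had an exonic cluster, with a median of 0, where 86.7% of the 11161 protein-coding genes with a promoter cluster had no exonic one. Together they held 16 exonic clusters in E14 and A1 and 15 in C7. Ogt, the O-GlcNAc transferase that binds TET proteins, had the most, with 8 exonic clusters in E14 and A1 and 7 in C7, or 0.994 per kb of exon in E14. Dnmt1, the maintenance methyltransferase, had 3 exonic clusters in each line. Dnmt3a, a de novo methyltransferase, Sin3a, a corepressor scaffold found with TET1, and Uhrf1, which guides DNMT1 to hemimethylated DNA, had 1 each, as had Uhrf2 and Gadd45a. Tdg, which excises the oxidised bases, had 2 promoter clusters and no other, and Cxxc4 had no cluster. In A1 none of the 26 had more exonic clusters than in E14 and none fewer, and in C7 only Ogt had fewer. Dnmt3a had 4 promoter clusters in E14 and C7 and 3 in A1. Over the 11161 genes, 0.717% had more exonic clusters in A1 and 0.305% fewer, and 0.726% had more in C7 and 0.251% fewer.

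The genes most like the Tet genes were sought by distance over 9 values, log2 of the number of promoter, exonic and intronic clusters plus 1 in each of the 3 lines. Nearest to Tet1 were Enah, a regulator of actin filaments, at a distance of 2.96, with 10 promoter, 15 exonic and 11 intronic clusters in E14, the splicing factor Srrm2 at 3.33 and the scaffold protein gene Akap12 at 3.35. Among these nearest genes Akap12 came closest to Tet1 in exonic clusters, with 43 in each line. Nearest to Tet2 were Tmem131 at 0.814, the RNA-binding protein gene Msi2 at 1.25 and the histone acetyltransferase gene Kat6b at 1.75. Tet3 had the commonest kind of pattern of the 3, with 1921 genes at a distance of 0, of which Lrp2, Dennd4a and Fchsd2 were closest to it in exon length.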

How the data were processed

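Nuclear RNA of 3 E14, 2 DKO A1 and 3 DKO C7 libraries was sequenced by CAGE-seq. The authors aligned reads with STAR 2.4.2a (build mm10), kept unique hits, and used CAGEr for power-law normalisation and for calling clusters. They also merged the libraries of a line. The submitters' notes also name SAMtools 1.3 and bedtools 2.17.0. The values in the deposited file are positions of clusters, dominant TSSs and interquantile blocks. The deposited score is 0 for every cluster, so no tag count, depth or expression value was used, and the lowest signal of a cluster is not given in the sources used here.

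Clusters were assigned with Python 3.11.15 to GENCODE release M21 in the order promoter (500 bp), exon, intron. Clusters on 1 strand that shared at least 1 bp were taken to overlap. Interval bounds are 95% Wilson bounds (SciPy 1.17.1) and cover counting error only. Figures were drawn with Matplotlib 3.10.9. Bases came from GENCODE transcripts, or RefSeq promoter windows (GRCm38.p6) where no transcript held them. On simulated clusters the assignment recovered 2000 of 2000 categories and 2000 of 2000 overlaps.

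The genes named are the Tet genes, the 3 genes nearest to each over the 9 cluster numbers (ties broken by exon length and name), the cell markers, the knocked-out genes and, from a list of 26 genes of DNA methylation and demethylation, those with an exonic cluster and a few without. Mki67 was named after its value was seen. Members and lists were chosen with earlier results of these data known. Alternatives were other promoter windows, transcript sets, positions, width minimums, and merging and overlap rules.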

Additional observations from a re-analysis of the deposited data

How the results depend on the processing

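No paired analysis was possible because the deposited clusters merge the replicates of each line, and for the same reason no replicate could be left out. Leaving out clusters with an interquantile width under 3 bp gave 46, 49 and 47 clusters at Tet1 in E14, A1 and C7, of which 26, 28 and 27 were exonic, and at Tet2 15, 16 and 15, with 6, 7 and 7 exonic. Joining clusters within 100 bp gave 41, 43 and 42 at Tet1, with 6 promoter clusters in each line and 24, 25 and 25 exonic ones, and at Tet2 1 promoter and 8 exonic clusters in each line. A promoter window of 100 bp left 8 promoter clusters at Tet1 in each line and turned 1 of the 2 at Tet3 into an intronic one, so that Tet3 had 1 of each kind. The median width of the promoter clusters of Tet1 was 40 bp in each line by whole clusters, 38, 36 and 36 bp with a window of 100 bp, 30, 18 and 18 bp with 1000 bp, and 38, 36 and 36 bp with the width minimum. That of its exonic clusters was 3.5 bp in E14 by whole clusters, and 8.5, 8 and 12 bp with the width minimum. The dominant TSS of the Tet clusters lay within 5 bp of that of E14 for 94.1% in A1 and 96% in C7, against 85.1% and 87.1% at the same base. The number of exonic clusters per kb of exon at Tet1 was between 3.04 and 3.56 under every window and transcript set tried. The share of Tet clusters overlapped in another line stayed within its Wilson interval under every overlap rule. Because nearly all of these clusters had the same start and end in each line, the overlap rules could hardly change that share. Settings for the bases before exonic TSSs of Tet1 were added after seeing the data. G at −2 or −1, found in 93.5% in E14, 93.8% in A1 and 95.7% in C7, was then found in 92% to 96.2%. In E14 it stood in 89.6% of all exonic clusters, 41.9% of all promoter clusters and 37.9% of the positions of Tet1-206.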
